A study of Mus musculus with 48 samples.

Results

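The livers described here came from 14 male C57BL6J mice that drank corticosterone at 100 ug/ml for 2 weeks on the control diet, out of 48 mice in the series. The disease state label divided them into 9 diabetic and 5 nondiabetic mice, and a fed glucose and an insulin value, both without units in the labels, were given for each mouse. The comparison asked which liver transcripts differed between mice labelled diabetic and mice labelled nondiabetic under the same hormone, strain, sex, diet and duration. For reference, 10 vehicle mice drank 1% ethanol on the control diet, and 14 further corticosterone mice ate atglistatin, an inhibitor of the lipase ATGL, at 571 mg/kg of food. Ages, cages and processing batches were not given in the sources used here. RNA from powdered frozen liver was counted per gene by 3' tag sequencing (Lexogen QuantSeq), in which a transcript yields reads near its 3' end whatever its length. Livers are named below by the number in their titles.

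Corticosterone, the main glucocorticoid of rodents, acts in hepatocytes through the glucocorticoid receptor to raise glucose output and lipid storage, and in excess it lowers insulin sensitivity. Insulin acts in the opposite direction on glucose output: it lowers transcription of G6pc and Pck1. Glucose itself acts on transcription through the ChREBP/Mondo factors, whose targets include enzymes of fructose metabolism, glycolysis and fatty acid synthesis.

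The labels followed fed glucose. The 9 diabetic mice ranged from 254 (liver 37) to 407 (liver 35). Of the nondiabetic mice, 4 lay between 131 and 145, and the fifth, liver 36, stood at 242, nearer to the diabetic mice than to its own group. Among these 14 mice the labels divided glucose without overlap, so no test of glucose between the labels was made. Across the series the division was not at a single glucose value. Mouse 26 of the corticosterone and atglistatin group was labelled diabetic with a fed glucose of 212, below the 242 of liver 36. Insulin divided the mice differently. Livers 33, 32 and 34 came from mice with insulin values of 9.31, 14.5 and 16.8, while the other 11 ranged from 27.7 to 39.8; livers 33 and 32 were labelled nondiabetic and liver 34 diabetic. Mean insulin was 35 ± 7.49 (SD, n = 9) in diabetic and 25.7 ± 13.5 (SD, n = 5) in nondiabetic mice, a difference of 9.22 with an exact two-sided permutation p of 0.118, where 5e-04 is the smallest p this design allows. The difference passed 0.05 when 1 of 3 mice was left out: 11.5 without liver 34 (exact permutation p = 0.0287), 12.4 without liver 29 and 12.5 without liver 36 (exact permutation p = 0.0266 for both). Within the 10 mice with glucose of 242 or more, glucose and insulin gave a Pearson r of -0.0386 (permutation p = 0.921, adjusted over 2 relations 0.921) and a Spearman rho of -0.503 (permutation p = 0.145, adjusted 0.29); without the 2 mice farthest from the median glucose, Pearson r was -0.0255. No pooled correlation is given because glucose fell into separate clusters.

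Depth was 8417531 to 19548520 counts per library, lowest in liver 34. Mitochondrial genes held 22.2%, 19.5% and 19.7% of counts in livers 29, 35 and 50, and 11.7% to 14.1% in the rest. The part of this share in the results below was not tested. Summed hepatocyte markers lay between 123000 and 178000 CPM (the share of a library's counts, scaled alike in every library), and all 14 listed markers were in the table. Fkbp5, a co-chaperone of the glucocorticoid receptor and one of its strongest targets, averaged 298 ± 98 CPM (SD, n = 5) in nondiabetic and 317 ± 92.8 CPM (SD, n = 9) in diabetic livers against 9.64 ± 3.81 CPM (SD, n = 10) in vehicle livers. Between the labels its log2 difference was 0.09, with a 95% interval from -0.38 to 0.56. Liver 30 (diabetic) held pancreatic acinar RNA, with a summed marker level of 6330 CPM against 11.2 to 27.9 CPM in the other 13. Livers 28 and 34 (both diabetic) held skeletal muscle RNA at 210 and 70.4 CPM against 9.37 to 23.3 CPM elsewhere. In bulk tissue, fewer cells of a type and less RNA per cell cannot be told apart. The first principal component, with 23.9% of the variance, placed the 3 livers with insulin under 20 lowest (-36, -28.2 and -26.2) and did not separate the labels. These 3 livers carry consecutive numbers, so a shared cage or handling cannot be told apart from low insulin.

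Between the labels, no gene was called. In edgeR's quasi-likelihood fit of 12003 genes, 0 were higher (0%) and 0 lower (0%) at a Benjamini-Hochberg adjusted p of at most 0.05; the smallest adjusted p was 0.992. At an unadjusted p of at most 0.05, 216 genes (1.8%) were higher and 232 (1.93%) lower in diabetic livers. Together they are a smaller share than the 0.05 that this threshold passes when nothing differs. DESeq2 also called 0, with 469 genes at an unadjusted p under 0.05, and limma voom with sample weights called 0, with 1439. The median half-width of the 95% interval of a gene's log2 fold change was 0.32, and 91.8% of genes had an interval wholly between -1 and 1. In 0 genes (0%) did all 9 diabetic livers exceed all 5 nondiabetic ones, and in 1 (0.00833%), Phykpl, named here after its values were seen, all 9 lay below, by a log2 of only -0.15. The genes and lists that follow are therefore described by their values, and none of their label differences passed the adjusted test. For single genes, the number of diabetic livers beyond every nondiabetic one is given as description only. How many of all genes reach such numbers was not counted, and several of these genes were named for their small p.

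**Figure D1:**
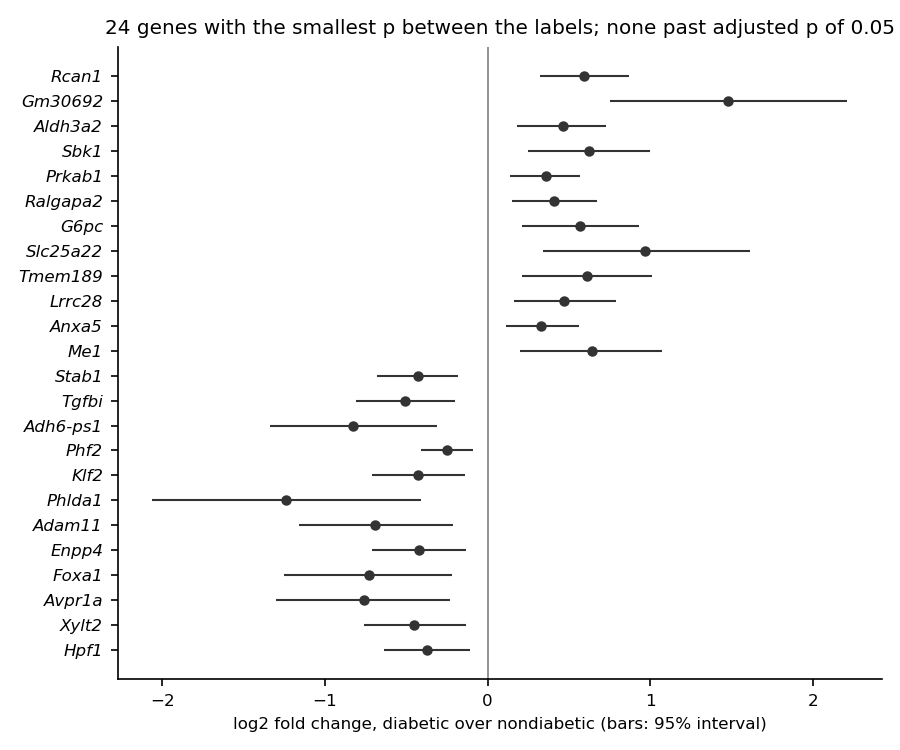
Log2 fold changes between livers labelled diabetic (n = 9) and nondiabetic (n = 5), with 95% intervals as bars, for the 12 higher and 12 lower genes with the smallest unadjusted p and a mean of at least 5 CPM. Rcan1 at 0.59 leads the higher genes and Stab1 at -0.43 the lower ones, and each interval leaves out 0 although the adjusted p is 0.992 for all 24.

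The gene with the smallest p on the higher side was Rcan1, an inhibitor of the calcium-dependent phosphatase calcineurin (chromosome 16, 92391953 to 92470867, minus strand, GRCm38). Its nondiabetic levels were nearly constant, at 18.4, 17.1, 17, 17.8 and 16.8 CPM in livers 29, 32, 33, 36 and 49. In diabetic livers it ran from 18.2 to 36.7 CPM with a median of 24.7. Liver 34 was the only diabetic liver inside the nondiabetic range, and the other 8 lay above it. The log2 difference was 0.59 ± 0.13 (SE, unadjusted p = 0.000309, adjusted p = 0.992). Vehicle livers varied far more, at 21.2 ± 20.8 CPM (SD, n = 10).

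Genes of glucose output leaned toward higher levels in diabetic livers. Of 22 tested members of the gluconeogenesis list, 4 were higher and 0 lower at an unadjusted p of at most 0.05. The shares of all genes were 1.8% and 1.93%. In the list 21 had a positive log2 difference, and the median was 0.20 against -0.001 over all genes. G6pc, the catalytic subunit of glucose-6-phosphatase and the last step of hepatic glucose release (chromosome 11, 101367561 to 101377903), stood at 596, 491, 401, 581 and 517 CPM in nondiabetic livers 29, 32, 33, 36 and 49. Diabetic livers had 509 to 976 CPM with a median of 856, and 7 of 9 exceeded every nondiabetic liver. The log2 difference was 0.57 ± 0.17 (SE, unadjusted p = 0.00383, adjusted p = 0.992). Within the diabetic livers the G6pc slope was -0.52 per 100 units of glucose (edgeR unadjusted p = 0.0236, adjusted p = 0.779), which did not pass adjustment. The mouse with the highest glucose, liver 35, had the lowest diabetic level, 509 CPM. Vehicle livers stood at 541 ± 216 CPM (SD, n = 10), near the nondiabetic mean of 517 ± 78.3.

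Pck1, the cytosolic enzyme of the first committed gluconeogenic step, varied more within each label, from 474 to 1540 CPM in nondiabetic and from 347 to 2360 CPM in diabetic livers, and its log2 difference of 0.63 had an interval from -0.17 to 1.42. Got1 and Sds supply carbon to the pathway from aspartate and serine. Got1 averaged 122 ± 55.2 CPM (SD, n = 5) and 291 ± 230 CPM (SD, n = 9), and Sds 168 ± 40.9 and 322 ± 233 CPM; both large diabetic spreads came from liver 45, with 861 CPM of Got1 and 924 CPM of Sds. Fbp1, fructose-1,6-bisphosphatase, had a log2 difference of 0.74 (unadjusted p = 0.0123), and its 3 lowest livers were 33, 32 and 34, the low-insulin livers of both labels, at 296, 300 and 341 CPM.

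Targets of the carbohydrate response, a list that also holds G6pc, leaned upward too. Of 24 tested members, 5 were higher and 0 lower at an unadjusted p of at most 0.05, against 1.8% and 1.93% of all genes. A positive difference was held by 22, and the median was 0.26. Me1, the cytosolic malic enzyme that makes NADPH for fatty acid synthesis (chromosome 9, 86581371 to 86695953), stood at 70.8, 72.6, 80.8, 158 and 107 CPM in nondiabetic livers 29, 32, 33, 36 and 49. In diabetic livers it ran from 85.1 to 191 CPM with a median of 165. The highest nondiabetic level belonged to liver 36, the mouse with glucose of 242, and the labels overlapped. The log2 difference was 0.64 ± 0.21 (SE, unadjusted p = 0.00658, adjusted p = 0.992). Khk, ketohexokinase, had a log2 difference of 0.44 (unadjusted p = 0.0159). Other members had intervals that span 0 widely: Mlxipl, which encodes ChREBP, differed by 0.12, Pklr by 0.21 and Txnip by 0.15, with unadjusted p of 0.576, 0.4 and 0.667.

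**Figure D2:**
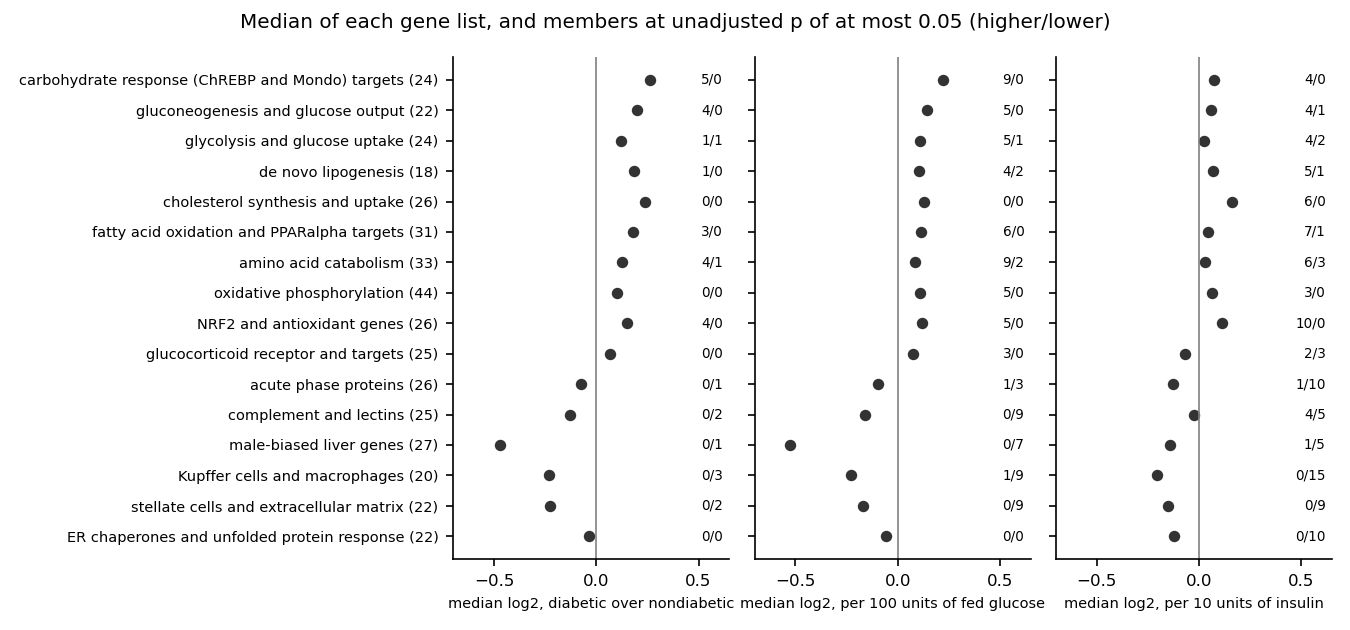
Median log2 difference between the labels (left), slope per 100 units of fed glucose (middle) and slope per 10 units of insulin (right) for 16 gene lists, with the number of members tested in brackets and, at the right of each panel, the members higher and lower at an unadjusted p of at most 0.05. Carbohydrate response targets lean upward with the label and with glucose (5 and 9 members higher, 0 lower), and Kupffer cell markers lean downward with all 3 (3, 9 and 15 members lower). Over all genes, the shares higher and lower at that p are 1.8% and 1.93% (left), 4.27% and 4.37% (middle), and 9.29% and 9.06% (right).

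Other metabolic lists leaned the same way by small amounts, while some further lists leaned as evenly downward. Of 41 cytosolic ribosomal protein genes 2 were positive (median -0.088), and of 13 heat shock chaperone genes 1 was (median -0.28). Genes of a list can vary together, so a count of signs is not a count of separate results. All but 3 of 26 cholesterol synthesis genes had a positive difference (23 positive, median 0.24), yet 0 reached an unadjusted p of 0.05 in either direction. Of 44 oxidative phosphorylation genes, 42 were positive with a median of 0.10 and none at that p. Of 26 NRF2 and antioxidant genes, 24 were positive and 4 reached it, among them Gstm2 and Gsr. Of 31 fatty acid oxidation genes, 28 were positive and 3 reached it: Slc25a20, the carnitine carrier, Cpt2 and Cyp4a14. Over all genes, 1.8% were higher and 1.93% lower at that p, and the median difference was -0.001. Glucocorticoid receptor targets had 0 of 25 at that p in either direction and a median of 0.07. Cyp7a1, the rate-limiting enzyme of bile acid synthesis, stood at 24.8, 21.7, 15.3, 25.7 and 36.1 CPM in nondiabetic livers 29, 32, 33, 36 and 49 and at 7.24 to 289 CPM (median 54.3) in diabetic livers, of which 8 exceeded every nondiabetic liver and liver 34 lay below them all. Its log2 difference was 1.66 ± 0.55 (SE, unadjusted p = 0.00785, adjusted p = 0.992). Nondiabetic livers were also below vehicle livers (93.2 ± 38.5 CPM, SD, n = 10; edgeR adjusted p = 0.00754), whereas the diabetic interval against vehicle was wide (log2 -0.25, adjusted p = 0.653).

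On the lower side, the smallest p belonged to Stab1, a scavenger receptor of sinusoidal endothelial cells (chromosome 14, 31139013 to 31168641). Its levels were 12.3, 16.1, 14.6, 12.4 and 10.7 CPM in nondiabetic livers 29, 32, 33, 36 and 49 and 7.8 to 12.8 CPM (median 9.83) in diabetic ones, with 7 of 9 below every nondiabetic liver. The log2 difference was -0.43 ± 0.12 (SE, unadjusted p = 0.00223). Avpr1a, the vasopressin receptor of hepatocytes (chromosome 10, 122448499 to 122453452), stood at 22.3, 28.4, 26.2, 22.2 and 31 CPM against 6.62 to 27.3 CPM (median 14.2), with 8 of 9 diabetic livers below every nondiabetic one; its log2 difference was -0.76 ± 0.25 (SE, unadjusted p = 0.00759). Tgfbi, a secreted extracellular matrix protein, averaged 10.5 ± 1.51 CPM (SD, n = 5) and 7.46 ± 1.56 CPM (SD, n = 9). Sinusoidal endothelial markers had 3 of 19 lower and 0 higher at an unadjusted p of at most 0.05 (median -0.145). Kupffer cell and macrophage markers had 3 of 20 lower (C1qa, C1qb and Csf1r, median -0.23, 1 positive). Stellate cell markers had 2 of 22 lower (median -0.225). At that p, 1.93% of all genes were lower and 1.8% higher. The summed Kupffer cell markers overlapped between labels, at 226 to 350 CPM in nondiabetic and 177 to 351 CPM in diabetic livers, and the part of cell composition in these differences was not tested.

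Set side by side against the same 10 vehicle livers, which both comparisons share, nondiabetic livers had 1495 genes higher (11.9%) and 1717 lower (13.7%) of 12572 tested, and diabetic livers 2340 higher (18.6%) and 2505 lower (19.9%), all at an edgeR adjusted p of at most 0.05. The groups differ in size, 5 and 9, which alone changes how many genes can be called, so the counts do not measure severity. For the glucose output list the calls were 5 higher and 1 lower of 23 in nondiabetic and 11 higher and 1 lower in diabetic livers. For carbohydrate response targets they were 15 higher and 2 lower of 25, and 18 higher and 0 lower.

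Across the 14 livers, 2 genes rose with fed glucose (0.0167% of genes tested) and 0 fell (0%) at an adjusted p of at most 0.05; 512 (4.27%) had a positive and 524 (4.37%) a negative slope at an unadjusted p of at most 0.05. This trend is not independent of the label. Slc25a22, which carries glutamate across the inner mitochondrial membrane (chromosome 7, 141429744 to 141437892, minus strand), stood at 84.7, 80.3, 66.8, 141 and 85.2 CPM in nondiabetic livers 29, 32, 33, 36 and 49. Liver 36, which also had the highest glucose of these, was thus the highest. Slc25a22 was picked for its slope over all the livers, liver 36 included. The match of its levels to glucose, here and in the diabetic livers, therefore describes that slope and is no separate test of it. Diabetic livers ran from 96.2 to 346 CPM with a median of 142, and the 3 highest, livers 45, 35 and 30 at 346, 309 and 215 CPM, were the 3 with the highest glucose, at 315, 407 and 298. The slope was 0.79 ± 0.12 (SE) on the log2 scale per 100 units of glucose (edgeR adjusted p = 0.0193). Vehicle livers had 62.7 ± 18.9 CPM (SD, n = 10).

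The other gene was Gm30692, a long intergenic noncoding RNA with no function given in the annotation (chromosome 8, 24412179 to 24416937, plus strand). It was scarce in vehicle livers, at 0.685 ± 0.319 CPM (SD, n = 10), and stood at 6.1, 4.31, 3.72, 5.98 and 6.16 CPM in nondiabetic livers 29, 32, 33, 36 and 49. Diabetic livers ran from 5.06 to 31.6 CPM with a median of 12.6, the highest in liver 35. Its slope was 0.99 ± 0.15 (SE) per 100 units (adjusted p = 0.0193), and unlike Slc25a22 it was not raised in liver 36. Within the 9 diabetic livers the slopes were 1.17 for Gm30692 (unadjusted p = 0.00176) and 1.10 for Slc25a22 (unadjusted p = 0.0023). Neither gene passed adjustment there. Both genes were picked for their slopes over all the livers, these 9 included, so the slopes within the 9 are no separate test. Among these 9, liver 35 also stood apart in glucose, at 407 with the next at 315. Both calls were lost without liver 35 (slopes 0.96 and 0.83, adjusted p = 0.426 for both), without liver 33 (adjusted p = 0.126 for both) or without liver 49 (adjusted p of 0.0575 and 0.0624), and also without the 3 low-insulin livers (adjusted p = 0.236 for both). Both were lost as well with insulin as a covariate or with log2 of glucose. In the corticosterone livers of the atglistatin diet, Gm30692 had a slope of 0.52 ± 0.14 (SE) per 10 units of insulin (edgeR unadjusted p = 0.0013, adjusted p = 0.0774). Slc25a22 had -0.02 ± 0.08 (SE) there. Without liver 50, 7 genes rose. Without liver 28, 1 gene fell, and without liver 32, 2 fell.

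**Figure D3:**
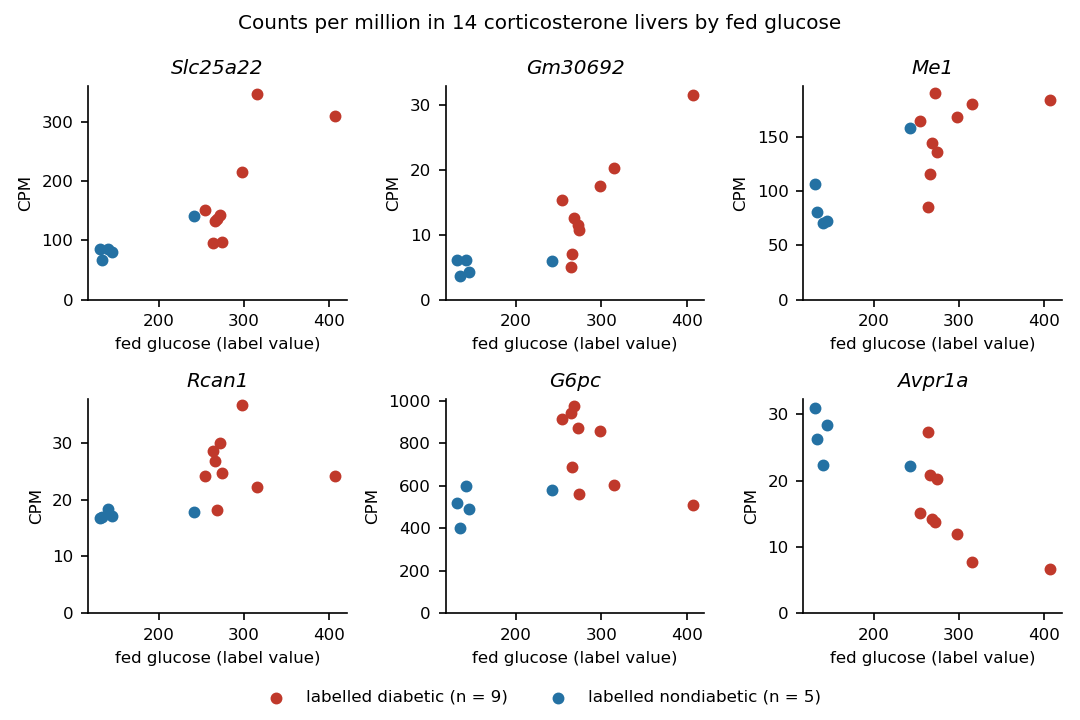
Levels in CPM of 6 genes (vertical axes, linear from 0) against the fed glucose value of each mouse (horizontal axes), with 9 diabetic and 5 nondiabetic livers as points. Slc25a22, Gm30692 and Me1 are higher and Avpr1a lower in the 3 livers with the highest glucose than in the 4 nondiabetic livers with the lowest. These genes were named for the small p of their slopes with glucose over the same livers. Rcan1 and G6pc, named for their small unadjusted p between the labels, have higher medians in diabetic livers. G6pc is at 509 CPM at the highest glucose.

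The next genes by p had the same form without passing. Ly6d, a surface protein of epithelial and B lineage cells, ran from 0.633 to 6.95 CPM in nondiabetic livers and reached 83.4, 28.8 and 20.2 CPM in livers 35, 30 and 45 (slope 1.91, adjusted p = 0.0613). Mfsd2a, a transporter of lysophosphatidylcholine, had a slope of 0.65 (adjusted p = 0.0959), and Me1 of 0.51 (adjusted p = 0.164). With negative slopes, Avpr1a stood at -0.69 and Tgfbi at -0.39 (adjusted p = 0.0959 for both), and Hsd3b3, a steroid dehydrogenase, at -0.56 (adjusted p = 0.175). By list, carbohydrate response targets had 9 of 24 with a positive and 0 with a negative slope at an unadjusted p of at most 0.05, Kupffer cell markers 1 and 9 of 20, stellate cell markers 0 and 9 of 22, and complement genes 0 and 9 of 25, against 4.27% and 4.37% of all genes; 0 members of these lists passed the adjusted test.

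Within the 9 diabetic livers, 0 genes rose (0%) and 0 fell (0%) with glucose at an edgeR adjusted p of at most 0.05 (3 and 1 without liver 35, 1 and 0 without liver 30, 3 and 6 with DESeq2), while 343 (2.86%) had positive and 389 (3.24%) negative slopes at an unadjusted p of at most 0.05. The male-biased liver genes, which the pulsatile growth hormone pattern of male rodents maintains, held 15 of 27 with negative and 0 with positive slopes at that p. Hsd3b5, a male-specific steroid reductase, was at 1.48, 0.735 and 0 CPM in livers 30, 35 and 45, the 3 highest in glucose, and at 23.5 to 59.1 CPM in the other 6 diabetic livers. The 0 in liver 45 allows a level of up to 0.153 CPM, which is 3 counts of that library's total and covers counting error only. Nondiabetic livers ranged from 16.8 to 113 CPM and vehicle livers averaged 125 ± 37.3 CPM (SD, n = 10). C8a and C8b, chains of the membrane attack complex of complement, followed the same 3 livers: C8a had 184, 145 and 96.8 CPM in livers 30, 35 and 45 and 267 to 462 CPM in the other 6. Summed over the list, livers 45, 30 and 35 held 3480, 7980 and 9410 CPM and the other 11 held 13100 to 25100 CPM. The list includes several major urinary protein genes, whose near-identical copies can share reads. De novo lipogenesis genes had 5 of 18 negative and 0 positive slopes at that p, among them Srebf1 (-1.08, unadjusted p = 0.00285) and Scd1 (-1.28, unadjusted p = 0.00343), with Scd1 at 435 CPM in liver 35 against 719 to 2340 CPM in the other 8. Liver 30 is also the liver with pancreatic RNA. The part of that RNA was not tested.

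More genes were called for the insulin value than for the disease label, a difference not itself tested. With edgeR, 119 genes rose (0.991%) and 96 fell (0.8%) with insulin at an adjusted p of at most 0.05, and 1115 (9.29%) and 1087 (9.06%) had positive and negative slopes at an unadjusted p of at most 0.05. These calls rest on livers 32, 33 and 34. Of the 119 genes, 105 were lower in all 3 of these livers than in any of the other 11, a pattern held by 4.03% of all genes, and of the 96, 78 were higher in all 3, held by 3.67%. Without the 3 livers 0 genes were called, although 579 had an unadjusted p under 0.05, and with the rank of insulin in place of its value 0 were called, with 817 at that p. Leaving out liver 32 alone left 5 and 7 calls, liver 33 left 4 and 8, and liver 34 left 11 and 19. Left out in turn, liver 30 gave 78 and 70 calls, liver 36 gave 192 and 154, and liver 45 gave 213 and 161.

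Genes higher in the 3 low-insulin livers included secreted proteins of the acute phase and a binding protein of insulin-like growth factors. Igfbp2, which binds insulin-like growth factors (chromosome 1, 72824503 to 72852474), stood at 65.3, 99 and 65.2 CPM in livers 32, 33 and 34 and at 8.93 to 24.3 CPM in the other 11. The groups did not overlap, and the slope was -0.91 ± 0.09 (SE) per 10 units of insulin (adjusted p = 0.000162). Vehicle livers, whose mice had much lower insulin values of 1.19 to 3.46, had 156 ± 50 CPM (SD, n = 10). Vehicle mice also drank no corticosterone, so the 2 differences cannot be told apart there. The acute phase list did not share this order: of 26 genes, edgeR called 12 higher and 0 lower in nondiabetic livers than in vehicle livers. For diabetic livers the calls were 11 higher and 3 lower. Saa1, an acute phase apolipoprotein, had 616, 423 and 770 CPM in livers 32, 33 and 34 and 7.31 to 221 CPM elsewhere (slope -1.69, adjusted p = 0.00137). Saa4 had 858, 705 and 1110 CPM against 149 to 339 CPM (slope -0.67, adjusted p = 0.00684), and Saa3 11.5, 11.6 and 16.3 CPM against 2.26 to 9.83 CPM (slope -0.67, adjusted p = 0.00763). In all, 4 of 26 acute phase genes fell with insulin and 0 rose, against 0.8% and 0.991% of all genes, the fourth being Steap4. Saa2, which is nearly identical to Saa1 so that reads may be divided between them, had a slope of -0.594 (adjusted p = 0.549).

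The Saa genes lie side by side on chromosome 7, and the promoters of the 3 that fell with insulin are shown because they moved together. The 300 bases around each gene start were read from RefSeq on GRCm38.p6 and are written 5' to 3' on the gene's strand, all minus. Capitals mark matches to TTGCNNAA, a core of C/EBP binding sites, searched on both strands.
Saa1 (chr7:46742931-46743230): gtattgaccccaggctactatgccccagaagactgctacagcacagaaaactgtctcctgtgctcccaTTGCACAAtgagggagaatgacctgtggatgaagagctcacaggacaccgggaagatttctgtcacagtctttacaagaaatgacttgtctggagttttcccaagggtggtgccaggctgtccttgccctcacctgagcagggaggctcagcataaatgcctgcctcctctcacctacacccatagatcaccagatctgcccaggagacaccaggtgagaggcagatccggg
Saa3 (chr7:46715627-46715926): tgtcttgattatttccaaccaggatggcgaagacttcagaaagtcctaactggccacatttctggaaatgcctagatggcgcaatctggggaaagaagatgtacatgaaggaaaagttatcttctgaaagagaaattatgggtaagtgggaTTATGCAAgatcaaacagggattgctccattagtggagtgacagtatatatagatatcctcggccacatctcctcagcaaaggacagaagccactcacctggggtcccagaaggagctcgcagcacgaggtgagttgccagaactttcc
Saa4 (chr7:46732554-46732853): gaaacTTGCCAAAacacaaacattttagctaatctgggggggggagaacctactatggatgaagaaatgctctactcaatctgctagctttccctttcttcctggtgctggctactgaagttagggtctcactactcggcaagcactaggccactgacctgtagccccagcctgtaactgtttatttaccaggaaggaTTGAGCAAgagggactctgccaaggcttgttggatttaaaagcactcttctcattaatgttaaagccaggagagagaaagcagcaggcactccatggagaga
Saa1 and Saa3 each held 1 match, at bases 69 and 152 of the window, and Saa4 held 2, at bases 6 and 199. The Saa2 window also held 1. Of 32851 promoter windows of this length, 3547 (10.8%) held at least 1, and a match is a match of letters only.

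Macrophage markers were also higher in the low-insulin livers. Of 20 tested Kupffer cell and macrophage markers, 6 fell with insulin and 0 rose, against 0.8% and 0.991% of all genes: C1qa, Adgre1, Vsig4, Cd5l, Csf1r and C1qb. Csf1r, the receptor for the macrophage growth factor, stood at 32.9, 35.3 and 29.5 CPM in livers 32, 33 and 34 and at 7.56 to 23.8 CPM in the other 11. The summed markers ran from 331 to 351 CPM in the 3 livers and from 177 to 270 CPM in the others, all below the 410 to 657 CPM of vehicle livers. Among the interferon-induced genes, Ifi47 and Usp18 fell and 0 of 23 rose, beside the same shares of all genes. Of 22 endoplasmic reticulum chaperone genes, 10 had negative and 0 positive slopes at an unadjusted p of at most 0.05, against 9.06% and 9.29% of all genes, with 0 called.

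Genes lower in the 3 low-insulin livers included several enzymes. Akr1c19, an aldo-keto reductase (chromosome 13, 4228700 to 4252843), stood at 14.1, 14 and 15.7 CPM in livers 32, 33 and 34 and at 65.4 to 157 CPM in the other 11 (slope 1.00, adjusted p = 0.00149). Etnppl, which breaks down phosphoethanolamine, had 67.9, 68.1 and 88.2 CPM against 180 to 404 CPM (slope 0.71, adjusted p = 0.00407). Of 26 NRF2 and antioxidant genes 5 rose with insulin and 0 fell, against 0.991% and 0.8% of all genes: Aox1, Ephx1, Gsta2, Gclm and Prdx6. Ephx1, the microsomal epoxide hydrolase, had 124, 124 and 140 CPM against 306 to 541 CPM, and its slope was 0.64 (adjusted p = 0.00718). Of 20 lipolysis and lipid droplet genes 3 rose and 0 fell, beside the same shares of all genes: the carboxylesterases Ces1f and Ces1d, and G0s2, which inhibits ATGL. G0s2 stood at 93.8, 58.7 and 56.5 CPM in livers 32, 33 and 34 and at 94 to 256 CPM in the other 11.

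**Figure D4:**
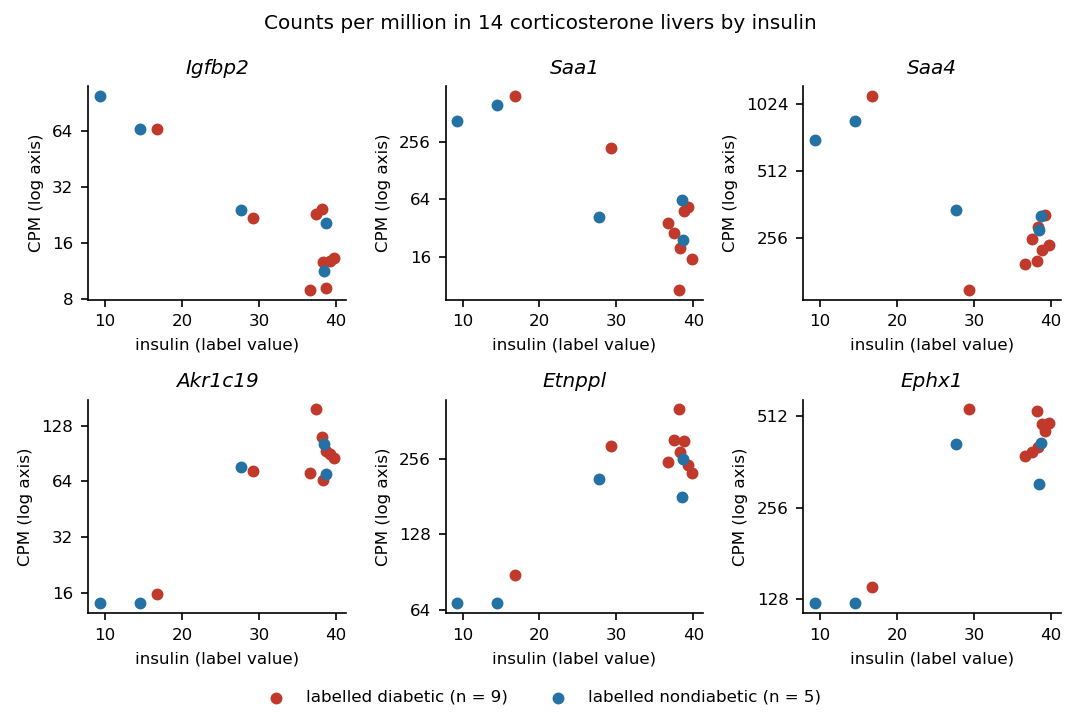
Levels in CPM of 6 genes (vertical log2 axes) against the insulin value of each mouse (horizontal axes), with 9 diabetic and 5 nondiabetic livers as points. The 3 livers with insulin under 20, of which 1 is labelled diabetic, stand apart from the other 11 in all 6 panels, above them for Igfbp2, Saa1 and Saa4 and below them for Akr1c19, Etnppl and Ephx1.

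The same genes were then read in the 14 corticosterone livers of the atglistatin diet, which share no library with these 14 and whose insulin values ran from 2.19 to 38. No gene was called there by edgeR (12287 tested; 1171, or 9.53%, had positive and 1172, or 9.54%, negative slopes at an unadjusted p of at most 0.05). Of the 92 tested genes that fell with insulin on the control diet, 76 (82.6%) had a negative slope on the atglistatin diet, against 51.5% of all genes, and 32 (34.8%) at an unadjusted p of at most 0.05. Of the 119 that rose, 77 (64.7%) had a positive slope, against 48.5% of all genes, and 23 (19.3%) at that p. Igfbp2 had a slope of -0.73 (edgeR unadjusted p = 3.68e-05, adjusted p = 0.0504), Saa1 of -0.80 (unadjusted p = 0.00153), Saa3 of -1.01, Cd5l of -0.58 and C1qa of -0.29. Rarres1 had -0.46, Vsig4 -0.22 and Etnppl 0.15. Others were near 0: Akr1c19 had 0.03 ± 0.07 (SE) and Ephx1 -0.01 ± 0.06 (SE). Igfbp3 had -0.01, Mbl2 0.01, Fam107a -0.04, Aox1 0.07 and Cyp2c70 -0.11. Genes can vary together, so the counts of signs are not counts of separate results. Saa4 stood at -0.04 ± 0.05 (SE). The diet differed between the 2 sets, so this reading does not stand for a repeat of the same condition.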

How the data were processed

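Per the labels' protocols, 48 mouse livers were profiled with Lexogen QuantSeq and 50-base forward reads. The authors deposited raw counts per gene for all 48 libraries, and a table of DESeq2-normalized counts (a signal per gene), used here only for gene symbols. Per the submitters' processing notes the build was GRCm38, with R 3.6 and DESeq2 1.24.0; aligner, counter, annotation and strand setting were not given in the sources used here. From the counts, genes passing filterByExpr (minimum count 10, total 15) were scaled with TMM and tested in edgeR 4.0.16 (R 4.3.3) by quasi-likelihood with Benjamini-Hochberg adjustment, called at 0.05. Trends were fitted per 100 units of glucose and per 10 units of insulin. CPM used TMM-scaled library sizes. Alternatives used DESeq2 1.42.0 and limma 3.58.1; the fit was tested on simulated counts. Total counts were 8417531 to 19548520, and intervals at 95% for log2 values come from the model. Nothing in the labels says more of how the mice were kept, so p-values measure the spread between these samples. Named genes were the 12 with the smallest p in each direction at a mean of at least 5 CPM where too few were called, up to 4 per list, a preset list, and 5 per direction for other trends. Members and lists were chosen with earlier results of these data known.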

Additional observations from a re-analysis of the deposited data

Results flagged for a closer look

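Of 54 groups of values checked with Dixon's ratio, 13 values stood apart from the rest of their group. The genes checked were picked with these data known and CPM was not log-scaled, so no chance rate is set beside this count. Saa1, Saa4 and Igfbp2 were called for the insulin trend, which rests in part on liver 34. Among nondiabetic mice, liver 36 had glucose of 242 (the next was 145) and 141 CPM of Slc25a22 (next 85.2), and liver 29 had 6.95 CPM of Ly6d (next 2.39). Among diabetic mice, liver 35 had glucose of 407 (next 315) and 83.4 CPM of Ly6d (next 28.8). Liver 45 had 289 CPM of Cyp7a1 (next 83.8), 861 CPM of Got1 (next 358) and 924 CPM of Sds (next 303). Liver 30 had 132 CPM of Phlda1 (next 64.5). Liver 34 had insulin of 16.8 (the next lowest was 29.3), 770 CPM of Saa1 (next 221), 1110 CPM of Saa4 (next 323) and 65.2 CPM of Igfbp2 (next 24.3). The causes were not tested.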

How the results depend on the processing

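Between the labels, the count stayed at 0 under every alternative run. The 32 genes refitted under each of 24 alternatives kept their sign. The alternatives reuse the same livers, and many of the genes were named for a small p, so kept signs are no test of these differences. For the glucose trend, main counts of 2 higher and 0 lower became 30 and 12 with DESeq2, 5 and 1 with limma voom and sample weights, and 6 higher with the clock index as a covariate; 0 were higher with insulin as a covariate, with log2 of glucose, or without the 3 mice with insulin under 20 (added after seeing the data). Leaving out each library gave 0 to 7 higher and 0 to 2 lower. Within the diabetic livers DESeq2 called 3 and 6, and leaving out each library gave 0 to 3 and 0 to 1. For insulin, main counts of 119 and 96 became 383 and 241 with DESeq2 and 35 and 28 with the disease label as a covariate. Alternatives added after seeing the data gave 1118 and 1156 with limma voom, 59 and 38 with the clock index, 78 higher without the library with Cpa1 above 20 CPM, 60 lower with fed glucose as a covariate, 0 and 0 with the rank of insulin, 0 and 0 without the 3 mice with insulin under 20, and 0 and 0 in the atglistatin-diet libraries. Leaving out each library (also added later, as for the diabetic livers and vehicle) gave 4 to 213 higher and 7 to 161 lower. Without the 3 mice, 146 of the 215 called genes kept the sign of their slope; among the genes named for this trend, those of Saa4 (0.09), Rarres1 (0.48), Cyp2c70 (0.39), Fam107a (0.20) and Ephx1 (-0.07) turned sign. The insulin difference between labels ranged from 5.12 to 12.5 on leaving out each mouse. Against vehicle, leaving out each library gave 1223 to 1519 higher and 1395 to 1731 lower in nondiabetic livers, and 2241 to 2360 and 2367 to 2527 in diabetic livers. The cause of these shifts was not tested. A placement of single livers by genes of the label comparison was computed and is not reported, because that comparison called 0 genes and the genes chosen depend on which liver is left out. No paired analysis was possible because the diabetic and nondiabetic corticosterone mice share no replicate numbers.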

Other observations

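Genes that female mice express more strongly in liver leaned toward higher levels in diabetic livers by sign only, and a count of signs is not a count of separate results. Of 23 listed, 16 were in the data and 13 were expressed highly enough to be tested. Of 13 tested members of that list, 12 had a positive difference between the labels (median 0.62, against -0.001 over all genes). At an unadjusted p of at most 0.05, 1 was higher and 1 lower, against 1.8% and 1.93% of all genes, and edgeR called 0. Within the diabetic livers all 13 had a positive slope with glucose (median 1.07), 2 of them at that p, against 2.86% of all genes. Fmo2, a member of that list, stood at 96.4, 144 and 101 CPM in livers 30, 45 and 35 and at 21.8 to 44.3 CPM in the other 6 diabetic livers. Nondiabetic livers ranged from 23.6 to 89.1 CPM, so the labels overlapped.

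Skeletal muscle genes had the largest list median between the labels, 2.57. Of 6 tested members, 4 were higher at an unadjusted p of at most 0.05, against 1.8% of all genes, and edgeR called 0. The summed markers stood at 210 CPM in liver 28 and 70.4 CPM in liver 34, against 9.37 to 23.3 CPM in the other 12 livers, so the median rests on libraries 28 and 34.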
